A study of Drosophila melanogaster with 9 samples.

Results

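The genes described here carry the symbols of proteins of the cytosolic ribosome, though not all of them encode parts of it. They were chosen by symbol, as every gene of the deposited counts table that is named *RpL* or *RpS* followed by a number, by P and a number, or by A, which took 92 of 17493 genes, 54 of them *RpL* and 38 *RpS*. Of these, 65 stand alone, and 27 fall into 13 families of 2 or more genes with a shared name. In each family the gene with the most counts per kilobase of exon over the 9 libraries is called the main gene, and the other or others, 14 in all, are called paralogs, so that 78 genes are single or main. The level gap between a main gene and its paralog is therefore part of how they were named. RNA-Seq was done on S2-DGRC cells, a *Drosophila* line of embryonic origin grown at 12% fetal bovine serum according to the labels, 96 h after addition of dsRNA. GFP dsRNA has no target in the fly and left cells in mitotic cycles, while CycA dsRNA and Myb dsRNA made induced endoreplicating cells (iECs), which copy their genome without dividing. Each group had 3 biological replicates, all of 1 cell line. The methods name a lower serum share for ordinary S2 culture than for iECs without placing the GFP dsRNA cells, so a serum difference, if there was one, cannot be told apart from the dsRNA. All libraries were made from poly-A RNA with a stranded kit.

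A cytosolic ribosome joins a small subunit, which reads the mRNA, with a large subunit, which forms the peptide bond. Most of its proteins are needed in equal numbers, and in flies the loss of 1 copy of many of these genes gives the *Minute* phenotype of slow growth and thin bristles. In *Drosophila* most ribosomal protein (Rp) genes start at a TCT initiator instead of a TATA box, and the mRNAs begin with a pyrimidine tract through which the Tor pathway controls their translation. Some are duplicated, and several of the duplicates are known for expression in the germline, among them *RpS5b*, *RpL22-like*, *RpS19b* and *RpS10a*. Others with a similar name are not parts of the mature ribosome. *RpL24-like*, *RpLP0-like* and *RpL7-like* are the fly relatives of yeast Rlp24, Mrt4 and Rlp7, which act in the assembly of the large subunit.

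Both dsRNAs lowered their own target. *CycA*, a partner of the kinase Cdk1, held 186, 181 and 185 CPM in control cells, 24.1, 43.2 and 24.7 CPM in CycA dsRNA iECs and 262, 257 and 261 CPM in Myb dsRNA iECs, with a log2 fold change of -2.57 ± 0.15 (SE, adjusted p = 1.9e-09) under its own dsRNA in edgeR's quasi-likelihood test. *Myb*, a subunit of the activator of mitotic genes, held 224, 203 and 219 CPM in control cells, 165, 164 and 169 CPM in CycA dsRNA iECs and 13.3, 15.1 and 12.8 CPM in Myb dsRNA iECs, with a log2 fold change of -3.98 ± 0.06 (SE, adjusted p = 4.2e-15) under its own dsRNA. Libraries held 29128930 to 44280452 counts. S2 cells resemble blood cells, and the identity was checked with 9 hemocyte markers. The transcription factors *srp* and *ush*, the scavenger receptor *crq* and the matrix gene *Pxn* were present in all libraries, while the plasmatocyte markers *Hml* and *NimC1* reached at most 1.20 CPM. The summed level of the list ran from 729.8 to 828 CPM in control cells. It ran from 1186 to 1258 CPM in CycA dsRNA iECs and 922 to 994 CPM in Myb dsRNA iECs. Under CycA dsRNA 5 of the 9 were called higher, where 21.2% of all genes tested were. Among them were *He* at 4.79 and *eater* at 3.99 on the log2 scale. In control cells *He* held 0.585, 0.519 and 0.401 CPM, and *eater* 2.97, 3.06 and 3.26 CPM. Summed muscle markers ran from 0.315 to 0.401, 1.58 to 1.68 and 0.783 to 0.961 CPM in the same order of groups, neuron markers, mostly *elav*, from 28.5 to 35.1, 42.4 to 47.4 and 37.4 to 39.0 CPM, and fat body markers from 0.135 to 0.202, 0.463 to 0.913 and 0.432 to 0.751 CPM. Their part in the Rp gene results was not tested.

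Transcripts of the 92 genes made up a large part of every library. Their share of all assigned counts was 15.1, 18.3 and 16.5% in the 3 GFP dsRNA libraries, 14.4, 14.8 and 13.7% in CycA dsRNA iECs and 15, 14.7 and 15.6% in Myb dsRNA iECs. All CycA dsRNA libraries lay below all control libraries, and the Myb dsRNA libraries overlapped with control replicate 1. The control libraries were far apart from each other. In replicate 2 the level (CPM, counts scaled to a library size of 1000000 with TMM factors) of 74 of the 78 main and single genes was the highest of all 9 libraries, and replicate 1 was lowest of the 3 controls for 72 of the 78. In log2 units against the mean of the controls, the median of the 78 genes was -0.16, 0.15 and 0.00 in the control libraries, -0.15, -0.12 and -0.24 in CycA dsRNA iECs and -0.22, -0.25 and -0.16 in Myb dsRNA iECs. Control replicate 1 alone was thus at the level of the iECs, and for 56 of the 78 genes it was under the highest iEC library. These are levels relative to the other mRNA of the library, and in bulk RNA fewer cells of a kind and less RNA per cell cannot be told apart.

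**Figure D1:**
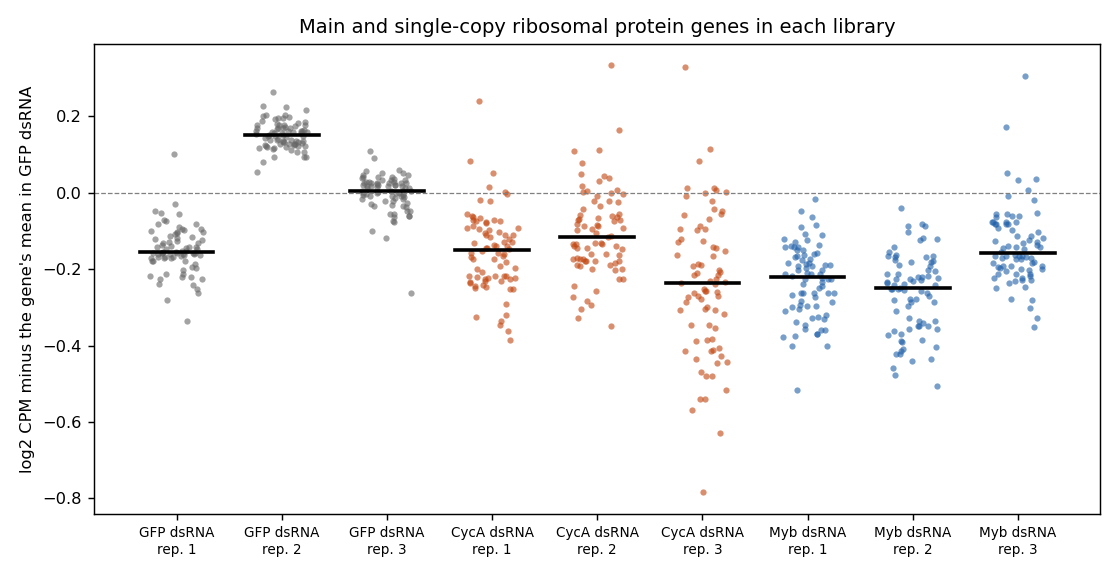
Level of the 78 main and single-copy Rp genes in each of 9 libraries, as log2 CPM minus the gene's own mean over the 3 GFP dsRNA libraries (vertical axis). Each point is 1 gene and the black bar is the median of the library. Control replicate 2 stands above the other 8 libraries for 74 genes, and the medians of the iEC libraries lie between -0.25 and -0.12, near that of control replicate 1.

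In mitotic cycling cells the 78 genes were not at one level. Per kilobase of exon, the median was 2154 CPM, the central part of the distribution, from the tenth to the ninetieth percentile, spanned 1037 to 4272 CPM, a range of 4.12-fold, and the extremes were 53.8-fold apart. The highest was *RpL41*, the smallest protein of the large subunit, at 9079 ± 1226 CPM per kilobase (mean ± SD, n = 3), followed by *RpL36A* at 6267 ± 598 and *RpL39* at 5984 ± 1159.7, 2 values that lie within their spread of each other. The lowest was *RpL22*, the main gene of its pair, at 169 ± 25.6 CPM per kilobase. Its exons overlap those of *lncRNA:CR42491* on the same strand, and how shared reads were treated is not given in the sources used here. Next came *RpL38* at 543 ± 71.4 and *RpS21* at 741 ± 106, whose difference is larger than either SD. Over 3 replicates *RpL22* was the least even of the 78 genes in both iECs, while in control cells *RpL39* was. *RpL22* held 197, 206 and 153 CPM in control cells, 157, 164 and 107 CPM in CycA dsRNA iECs and 129, 132 and 227 CPM in Myb dsRNA iECs, so that Myb dsRNA replicate 3 was the highest and CycA dsRNA replicate 3 the lowest library. Its log2 fold change was -0.38 ± 0.20 (SE, adjusted p = 0.093) in CycA dsRNA iECs, where leaving out control replicate 3 gave a call, at -0.54, and -0.19 (adjusted p = 0.43) in Myb dsRNA iECs, where leaving out Myb dsRNA replicate 3 gave one, at -0.51, in edgeR's test. The SD of its log2 level over 3 libraries was 0.46 in Myb dsRNA iECs, where the median of the 78 genes was 0.06. The order of levels was kept in the iECs. Over the 78 genes, which share libraries, the Spearman correlation of the mean level per kilobase with that of control cells was 0.98 under CycA dsRNA and 0.99 under Myb dsRNA.

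The first comparison asked how these genes differ in CycA dsRNA iECs from mitotic cycling cells. Calls rest on edgeR's quasi-likelihood test and need a change of 0.5 or more in size on the log2 scale with a Benjamini-Hochberg adjusted p under 0.05 over 9231 genes. The study set the same thresholds. By this rule 2 of the 88 members with enough counts to test were called higher, where 21.2% of all genes tested were, and 3 were called lower, where 14.1% were. All 5 are paralogs, and 0 of the 78 main and single genes were called by edgeR or by DESeq2, with 1 higher and 42 lower at an unadjusted p under 0.05. Smaller differences were common. With the adjusted p alone, 43 members were lower (background 36%) and 3 higher (background 34.8%), and among the 78 main and single genes 38 were lower and 1 higher. The median log2 fold change of the 78 was -0.16, or 0.892 times the control level, and that of all genes tested was 0.00. The 47 large subunit genes had a median of -0.17 and the 31 small subunit genes of -0.16. Libraries of the groups did not overlap for 31 of the 78 genes, where this was so for 72.5% of all genes tested.

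Among the small subunit genes the lowest change was that of *RpS2*, whose protein lies at the entry of the mRNA channel. It held 2623, 3188 and 2789 CPM in control cells and 2224, 2276 and 1964 CPM in CycA dsRNA iECs, with no overlap, and a log2 fold change of -0.41 ± 0.08 (SE, adjusted p = 0.00029). *RpS7* held 2337, 2909 and 2601 CPM against 1995, 2046 and 1926 CPM, again with no overlap, and changed by -0.40 ± 0.07 (SE, adjusted p = 0.00013). *RpS3*, a protein of the mRNA entry channel that also has a role in DNA repair, was at -0.32 ± 0.07 (SE, adjusted p = 0.00063), and its groups did not overlap. *RpS6*, the substrate of S6 kinase, held 1680.0, 2040.5 and 1855 CPM against 1737, 1772 and 1604 CPM, which overlapped. Its value was -0.12 (adjusted p = 0.11). Exons of *RpS6* overlap those of *CR33222* on the same strand.

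In the large subunit *RpL11* encodes a protein that forms a particle with RpL5 and 5S rRNA. *RpL11* held 1525, 2048 and 1799 CPM in control cells and 1399.5, 1450.2 and 1275 CPM in CycA dsRNA iECs. It changed by -0.38 ± 0.09 (SE, adjusted p = 0.0011). Its partner *RpL5* stayed at 4193, 5140.3 and 4781 CPM against 4378, 4689.9 and 4729 CPM, within the control range, with -0.03 (adjusted p = 0.72). Genes of the stalk that recruits elongation factors are given next, and differences from one gene to another were not tested. *RpLP2* was lower in all 3 CycA dsRNA libraries, at 1977, 2019.5 and 1717 CPM against 2411, 2718 and 2368 CPM, with a log2 fold change of -0.39 ± 0.10 (SE, adjusted p = 0.0023). *RpLP0*, the base of the stalk, was at -0.17 (adjusted p = 0.017) and *RpLP1* at -0.13 (adjusted p = 0.098). The ubiquitin fusion genes *RpL40* and *RpS27A*, each made as a precursor with ubiquitin, were at -0.15 (adjusted p = 0.064) and -0.04 (adjusted p = 0.61). Exons of *RpS27A* overlap those of *Ip259* on the same strand.

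The exception at the other end was *RpL15*, a core protein of the large subunit (FBgn0028697, 3L, 27267255 to 27268445). It held 1496, 1822 and 1701 CPM in control cells and 1969, 2101 and 2094 CPM in CycA dsRNA iECs, so that every CycA dsRNA library was above every control library, and its log2 fold change was 0.30 ± 0.07 (SE, adjusted p = 0.0018). The next in order, *RpL3* at 0.08 (adjusted p = 0.31), *RpL30* at 0.05 (adjusted p = 0.56) and *RpL29* at 0.04 (adjusted p = 0.71), overlapped with control cells and missed the threshold. *RpL3* reaches towards the peptidyl transferase centre, and *RpL29* is a small basic protein of the large subunit surface.

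**Figure D2:**
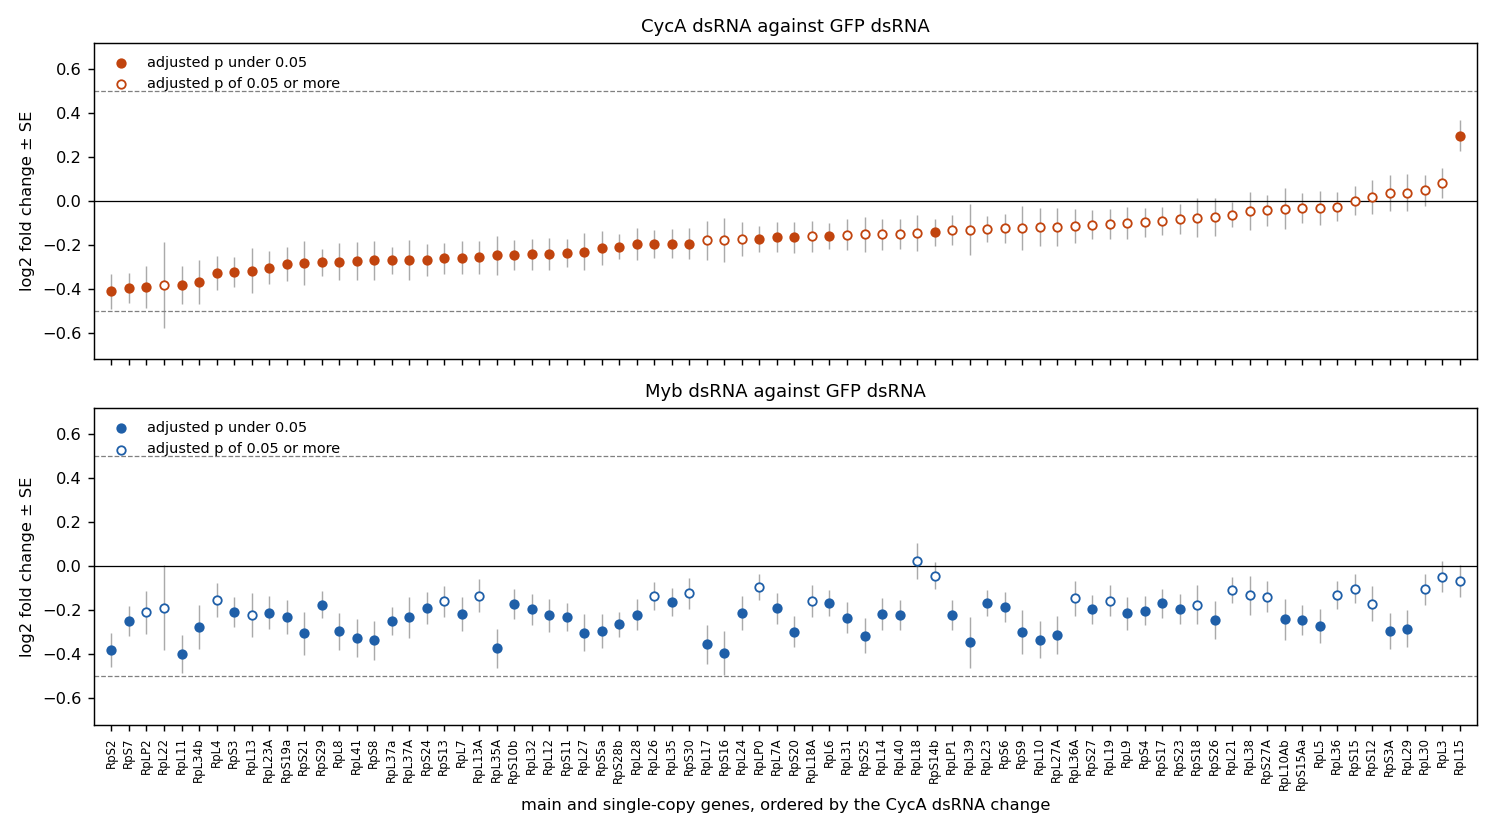
log2 fold change of each of the 78 main and single-copy Rp genes with its standard error, against GFP dsRNA, in CycA dsRNA iECs (upper panel) and Myb dsRNA iECs (lower panel), in the order of the CycA dsRNA change. Filled points have an adjusted p under 0.05, and dashed lines mark 0.5 in size, which no gene reaches. *RpL15*, at the right end, is the 1 gene with a filled point above 0.

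The comparison of Myb dsRNA iECs with the same control libraries gave a similar size of change with less spread between genes. Of the 88 members tested 3 were called higher (background 14.9%) and 0 lower (background 6.78%), and the 3 are paralogs. With the adjusted p alone 59 were lower (background 29.1%) and 3 higher (background 28.7%). DESeq2 also called 0 members lower by both thresholds, and 58 with its adjusted p alone, and at an unadjusted p under 0.05 in edgeR 64 were lower. Of the 78 main and single genes 77 had a negative log2 fold change and 54 were lower with the adjusted p alone. Their median was -0.21, or 0.863 times the control level, and that of all genes tested was 0.01. The SD of the log2 fold change over the 78 genes, a description, was 0.0849, against 0.125 in CycA dsRNA iECs. Medians were -0.21 for the large and -0.21 for the small subunit. Libraries of the groups did not overlap for 37 of the 78 genes, where this was so for 64.3% of all genes tested.

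*RpL11* was the lowest of the main and single genes here, at 1368, 1310.3 and 1393 CPM in Myb dsRNA iECs, with a log2 fold change of -0.40 ± 0.09 (SE, adjusted p = 0.0012). *RpS16*, whose tail reaches the tRNA held in the small subunit, held 1000.3, 1458 and 1232 CPM in control cells and 937, 899 and 969 CPM in Myb dsRNA iECs, with -0.40 ± 0.10 (SE, adjusted p = 0.004). *RpS2*, at 2164, 2081 and 2356 CPM, was below every control library and changed by -0.38 ± 0.08 (SE, adjusted p = 0.00088), and *RpL35A* of the large subunit changed by -0.37 ± 0.09 (SE, adjusted p = 0.0026). *RpL5* was at -0.27 (adjusted p = 0.0082) in these cells, and *RpS6* at -0.19 (adjusted p = 0.029), *RpS3* at -0.21 (adjusted p = 0.017) and *RpS7* at -0.25 (adjusted p = 0.0067). The stalk genes *RpLP0*, *RpLP1* and *RpLP2* were at -0.10, -0.22 and -0.21, and of these *RpLP1* alone had an adjusted p under 0.05, at 0.013. The 1 gene above 0 was *RpL18*, at 0.02 (adjusted p = 0.82), with 799, 902 and 751 CPM in control cells and 781, 793 and 919 CPM in Myb dsRNA iECs. *RpL15* was at -0.07 (adjusted p = 0.44).

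Both comparisons use the same 3 control libraries, whose own differences follow gene length. Outside the Rp genes, the Spearman correlation between exon length and a gene's deviation from its mean over 9 libraries was -0.12, -0.41 and -0.20 in the control libraries, 0.14, 0.14 and 0.17 in CycA dsRNA iECs and 0.09, 0.16 and 0.05 in Myb dsRNA iECs, so that short transcripts were relatively high in control cells and most of all in replicate 2. The 78 genes are short, with a median exon length of 935.5 bases against 2053 for the other genes tested. The 1494 other genes under 1000 bases had median log2 fold changes of -0.18 under CycA dsRNA and -0.12 under Myb dsRNA, next to -0.16 and -0.21 for the 78 Rp genes. Without control replicate 2 these Rp medians were -0.09 and -0.13, and 28 and 28 of the 78 were lower with the adjusted p alone. Without control replicate 1 they were -0.25 and -0.28, with 61 and 70 lower. With each library's trend with length removed, the medians were -0.03 and -0.12, with 14 lower and 8 higher in CycA dsRNA iECs and 29 lower and 0 higher in Myb dsRNA iECs. With the trend removed and replicate 2 left out, an alternative added after the data were seen, the median in CycA dsRNA iECs changed sign, to 0.02, with 7 lower and 13 higher, and that in Myb dsRNA iECs was -0.07, with 14 lower and 1 higher. Each library's length trend and the shift of the main Rp genes moved together, and the part of one in the other was not tested. Within the 78 genes, in CycA dsRNA and Myb dsRNA iECs, the 44 under 1000 bases had medians of -0.15 and -0.20. The 34 longer ones had -0.20 and -0.22.

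**Figure D3:**
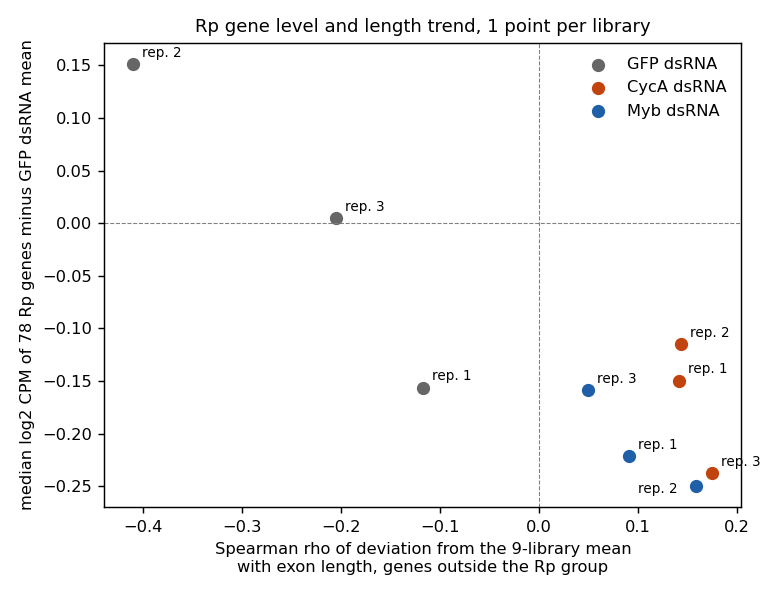
Each point is 1 library. The horizontal axis gives the Spearman correlation, over genes outside the Rp group, between exon length and the deviation from the mean of 9 libraries, and the vertical axis the median log2 CPM of the 78 main and single-copy Rp genes minus their mean in GFP dsRNA. The 3 control libraries are at -0.41 to -0.12 and the 6 iEC libraries at 0.05 to 0.18, and control replicate 2 is the highest and the farthest left.

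Several of the main and single genes named here passed the adjusted p under every setting, which was counted for named genes only. *RpS2* was lower, with an adjusted p under 0.05, under all 18 refits in both iECs, with log2 fold changes of -0.48 to -0.24 in CycA dsRNA iECs and -0.44 to -0.24 in Myb dsRNA iECs. *RpL15* was higher in CycA dsRNA iECs in all 18, by 0.22 to 0.48. *RpL11* and *RpL37a* were lower in all 18 in both iECs. *RpS7*, *RpS3* and *RpS10b* were so in CycA dsRNA iECs alone. *RpS16*, *RpL35A*, *RpL5*, *RpS3A*, *RpL41*, *RpS5a* and *RpS28b* were so in Myb dsRNA iECs alone. *RpS27A* and *RpS15Aa* went from -0.04 and -0.03 in CycA dsRNA iECs to 0.13 and 0.13 when the length trend was removed.

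The direct comparison of CycA dsRNA with Myb dsRNA iECs uses the control libraries only for the estimate of spread, the filter and the scaling. Of the 88 members 0 were called higher (background 15.4%) and 5 lower (background 14.5%), all 5 of them paralogs. DESeq2 called 0 higher as well, and at an unadjusted p under 0.05 in edgeR 11 were higher. With the adjusted p alone 6 were higher (background 31.5%) and 7 lower (background 34.9%), and the 6 higher ones are main or single genes. That count was 11 with DESeq2, 31 with the length trend removed, 29 when only these 2 groups were fitted, and 3 to 17 when 1 library was left out, with 3 without Myb dsRNA replicate 1 or 2 and 17 without control replicate 1. The median of the 78 was 0.05, with all genes tested at -0.02. These values rest on TMM factors of 0.961 to 0.965 in the CycA dsRNA and 1.04 to 1.05 in the Myb dsRNA libraries. The share of assigned counts held by all members, which uses no such factor, went the other way. It averaged 14.3% in CycA dsRNA and 15.1% in Myb dsRNA libraries, and the groups overlapped. The 6 genes were *RpL15* at 0.36 (adjusted p = 0.0004), *RpS3A* at 0.33 (adjusted p = 0.0024), *RpL29* at 0.32 (adjusted p = 0.0039), *RpL5* at 0.24 (adjusted p = 0.014), *RpS15Aa* at 0.21 (adjusted p = 0.013) and *RpL10* at 0.21 (adjusted p = 0.039). *RpL29* held 1224, 1286 and 1344 CPM in CycA dsRNA iECs and 1036, 975 and 1072 CPM in Myb dsRNA iECs, with no overlap. *RpS3A*, the 1 Rp gene of chromosome 4, held 1452, 1548 and 1444 CPM and 1169, 1117 and 1249 CPM, also with no overlap. Such a gap was found for 26 of the 78 genes, and for 72.8% of all genes tested. The 6 were taken by their adjusted p, and *RpL10* was named after its values were seen.

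The paralogs behaved differently from one another. Of 14, 10 had enough counts to test, and 4 did not. *RpL10Aa* had 0 counts in all 9 libraries, which allows a level of up to 0.0675 to 0.107 CPM in a library (3 counts). *RpS28a* had 1 count in all and *RpS28-like* 6, and *RpL7-like* had 7, and its exons overlap those of *CG34164* on the same strand, for which the treatment of shared reads is not given in the sources used here. Per kilobase and over the 9 libraries, the main gene of a tested pair had 1.15 to 4012 times the counts of its paralog. The pairs fall into 3 ranges. *RpS14a*, *RpL34a* and *RpL24-like* are within 4.32-fold of their main genes, *RpS19b*, *RpLP0-like* and *RpS15Ab* are 12.6 to 14.1-fold lower, and *RpL22-like*, *RpS10a*, *RpS5b* and *RpL37b* are 150.0 to 4012-fold lower. Main genes of families lie mostly on X, 8 of 13, while 1 of 14 paralogs and 5 of 65 single genes do. A single exon block without introns was annotated for 5 of the 14 paralogs (*RpL10Aa*, *RpL37b*, *RpS10a*, *RpS15Ab* and *RpS28a*), for 1 of 65 single genes (*RpLP2*) and for 0 of 13 main genes. Small nucleolar RNA genes lie within the span of 25 of the 65 single genes and 3 of the 13 main genes, *RpS5a* with 14 of them, and of 0 of the 14 paralogs. These positions are from the Release 6 annotation BDGP6.54.

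**Figure D4:**
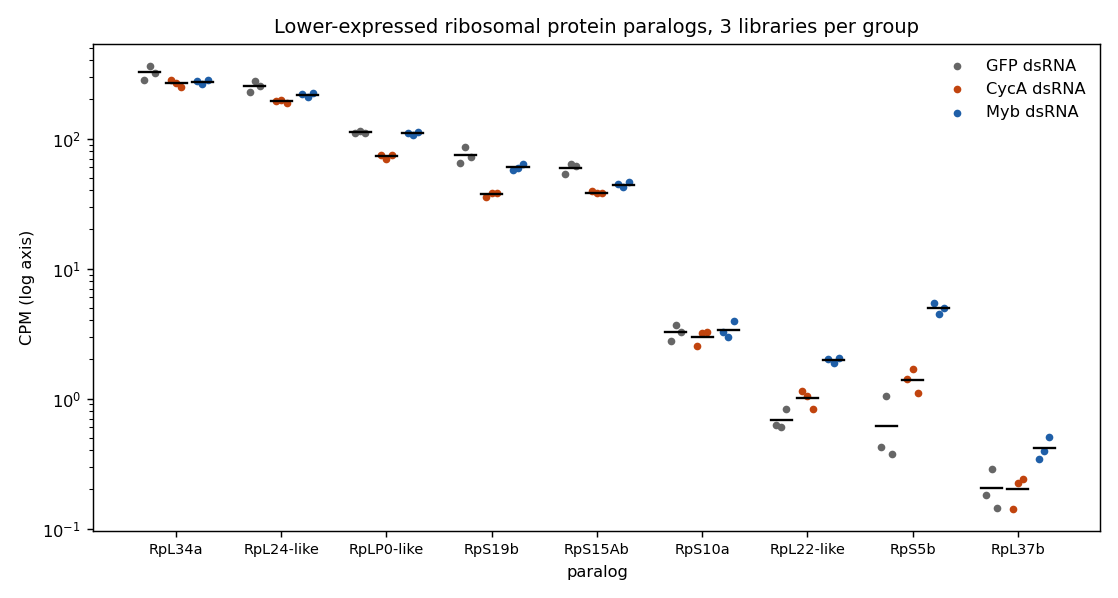
Level of 9 paralogs in CPM on a log axis, with 3 libraries for each of GFP dsRNA (grey), CycA dsRNA (orange) and Myb dsRNA (blue), and the mean as a black bar. *RpS14a*, which lies beside its near-identical copy, is not drawn. *RpL22-like*, *RpS5b* and *RpL37b* are highest in Myb dsRNA iECs, and *RpLP0-like*, *RpS19b* and *RpS15Ab* are lowest in CycA dsRNA iECs.

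The largest rise among all members was that of *RpS5b* (FBgn0038277, 3R, 14900432 to 14901563), the germline copy of the small subunit gene *RpS5a*. It held 0.427, 1.04 and 0.372 CPM in control cells, 1.42, 1.68 and 1.09 CPM in CycA dsRNA iECs and 5.40, 4.50 and 4.97 CPM in Myb dsRNA iECs, from raw counts of 13 to 36, 40 to 68 and 138 to 236 per library. None of the groups overlapped. The log2 fold change was 3.05 ± 0.23 (SE, adjusted p = 7.8e-08) in Myb dsRNA iECs and 1.23 ± 0.30 (SE, adjusted p = 0.002) in CycA dsRNA iECs, and CycA dsRNA iECs were below Myb dsRNA iECs, at -1.83 ± 0.20 (SE, adjusted p = 1.2e-06). Control replicate 2 had the highest control level, and without it the log2 fold changes were 3.62 and 1.79. They were 2.80 and 0.96 without control replicate 3. The level remained low beside *RpS5a*, which held 2685, 2603 and 2830.3 CPM in the same Myb dsRNA libraries. The share of the pair's counts assigned to *RpS5b* was 0.0147, 0.0277 and 0.0113% in control cells, 0.0503, 0.0576 and 0.0385% in CycA dsRNA iECs and 0.201, 0.173 and 0.175% in Myb dsRNA iECs.

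*RpL22-like* (FBgn0034837, 2R, 23246610 to 23247893), the germline copy of *RpL22*, had the same order of groups. It held 0.630, 0.606 and 0.830 CPM in control cells, 1.139, 1.04 and 0.827 CPM in CycA dsRNA iECs and 2.01, 1.86 and 2.07 CPM in Myb dsRNA iECs, and the Myb dsRNA libraries were above all others. The log2 fold change was 1.53 ± 0.17 (SE, adjusted p = 3.6e-06) in Myb dsRNA iECs, and CycA dsRNA iECs differed from them by -1.002 ± 0.16 (SE, adjusted p = 6.3e-05). In CycA dsRNA iECs replicate 3 was within the control range. The value was 0.53 ± 0.20 (SE, adjusted p = 0.027), just past both thresholds, and the call was lost with DESeq2, with scaling that left the members out (0.50, just under) and when any of 6 libraries was left out, where it was 0.45 (control replicate 2, CycA dsRNA replicate 1), 0.46 (control replicate 1) or 0.49 (CycA dsRNA replicate 2, Myb dsRNA replicates 1 and 2). *RpL37b* (FBgn0034822, 2R, 23100057 to 23100478), the copy of *RpL37a*, had 4 to 21 counts per library. It held 0.180, 0.289 and 0.143 CPM in control cells and 0.343, 0.392 and 0.504 CPM in Myb dsRNA iECs, which did not overlap, with a log2 fold change of 1.02 ± 0.32 (SE, adjusted p = 0.014). That call was lost with DESeq2 and without control replicate 1, control replicate 3 or Myb dsRNA replicate 3. CycA dsRNA iECs, at 0.142, 0.222 and 0.240 CPM, overlapped with control cells, at 0.04 (adjusted p = 0.93). *RpS10a*, known from the germline as well, held 2.53 to 3.96 CPM in all 9 libraries, at -0.09 (adjusted p = 0.59) in CycA dsRNA and 0.09 (adjusted p = 0.6) in Myb dsRNA iECs.

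Markers of the germline were compared as a list. The summed level of 8 germline genes was 138 to 145 CPM in control cells, 159.8 to 162 CPM in CycA dsRNA iECs and 186 to 188 CPM in Myb dsRNA iECs, most of it from the piRNA gene *aub*. In Myb dsRNA iECs 6 of the 8 were called higher (background 14.9%) and 0 lower (background 6.78%). In CycA dsRNA iECs 2 were called higher (background 21.2%) and 1 lower (background 14.1%), both near the background. The translational repressor *nos* held 1.12, 1.27 and 1.43 CPM in control cells and 3.93, 3.92 and 4.63 CPM in Myb dsRNA iECs, the differentiation factor *bam* 2.07, 1.85 and 2.09 CPM and 6.33, 5.58 and 5.57 CPM, and the gap junction gene *zpg* 0.135, 0.115 and 0.0858 CPM and 0.480, 0.783 and 0.840 CPM. In CycA dsRNA iECs *nos* was at -0.10 (adjusted p = 0.64) and *bam* at 0.95 (adjusted p = 6.7e-06), while the oogenesis gene *orb*, the 1 called lower, was at -0.82 (adjusted p = 0.0002) and *zpg* at -1.51 (adjusted p = 0.059). The list median was 0.05 under CycA dsRNA, with 4 of the 8 below 0, and 1.00 under Myb dsRNA, with 0 below 0. The part of such a difference in cell state in the paralog results was not tested.

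A second set of paralogs was lower in CycA dsRNA iECs. *RpS19b* (FBgn0039129, 3R, 23932729 to 23933530), which is also known from the germline but had far more counts here than the copies above, held 65.0, 85.6 and 72.7 CPM in control cells, 35.7, 38.1 and 38.1 CPM in CycA dsRNA iECs and 57.0, 59.7 and 63.8 CPM in Myb dsRNA iECs. The CycA dsRNA libraries were below all others. The log2 fold change was -0.99 ± 0.08 (SE, adjusted p = 5.7e-08) in CycA dsRNA iECs, -0.30 ± 0.08 (SE, adjusted p = 0.004) in Myb dsRNA iECs, and -0.69 ± 0.08 (SE, adjusted p = 3.2e-06) between them, while *RpS19a*, the main gene, was at -0.29 (adjusted p = 0.0036) and -0.23 (adjusted p = 0.018). The share of the pair's counts from *RpS19b* was 4.41, 4.73 and 4.75% in control cells, 2.71, 2.78 and 3.22% in CycA dsRNA iECs and 4.29, 4.45 and 4.48% in Myb dsRNA iECs. The call in CycA dsRNA iECs held under all 18 refits, at -1.09 to -0.74.

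*RpLP0-like* (FBgn0033485, 2R, 10098518 to 10099590), the relative of the assembly factor Mrt4, held 109.6, 115 and 111 CPM in control cells, 74.5, 69.4 and 74.9 CPM in CycA dsRNA iECs and 111, 106 and 113 CPM in Myb dsRNA iECs. It fell in CycA dsRNA iECs, with a log2 fold change of -0.62 ± 0.04 (SE, adjusted p = 1.4e-08), and not detectably in Myb dsRNA iECs, at -0.02 (adjusted p = 0.68). The difference between the iECs was -0.59 ± 0.04 (SE, adjusted p = 2.4e-08). *RpL24-like*, the relative of Rlp24, held 229.6, 277 and 255 CPM, 196, 196 and 189 CPM and 219, 208 and 226 CPM in the same order of groups. Its change of -0.39 ± 0.06 (SE, adjusted p = 3.7e-05) in CycA dsRNA iECs was under the fold threshold, and it was -0.22 (adjusted p = 0.0057) in Myb dsRNA iECs. Exons of *RpLP0-like* overlap those of *Jra*, and exons of *RpL24-like* those of *Dtd*, on the opposite strand, and whether featureCounts used strand is not given in the sources used here. *RpS15Ab* (FBgn0033555, 2R, 10821676 to 10822399) held 53.8, 63.4 and 61.1 CPM, 39.3, 37.9 and 37.9 CPM and 44.4, 42.3 and 46.3 CPM, with -0.63 ± 0.06 (SE, adjusted p = 2.7e-07) in CycA dsRNA iECs and -0.42 ± 0.06 (SE, adjusted p = 3.1e-05) in Myb dsRNA iECs, below control cells in every library of both. With the length trend removed *RpS15Ab* and *RpLP0-like* were no longer past the fold threshold in CycA dsRNA iECs, at -0.45 and -0.46.

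In the other pairs main gene and paralog had the nearest levels. *RpL34a* was at -0.27 (adjusted p = 0.0045) in CycA dsRNA and -0.23 (adjusted p = 0.013) in Myb dsRNA iECs, and its main gene *RpL34b* at -0.37 (adjusted p = 0.0043) and -0.28 (adjusted p = 0.028). *RpS14a* and *RpS14b*, which lie side by side on X and whose reads may have been split between them uncertainly, were at -0.19 (adjusted p = 0.11) and -0.14 (adjusted p = 0.048) in CycA dsRNA iECs. They were at -0.34 (adjusted p = 0.012) and -0.04 (adjusted p = 0.58) in Myb dsRNA iECs. The shares of the 10 tested pairs were also compared by an exact two-sided permutation test over libraries, in which 3 against 3 cannot give a p under 0.1. That smallest value was reached in 19 of 30 comparisons, 6 for CycA dsRNA against GFP dsRNA, 5 for Myb dsRNA against GFP dsRNA and 8 between the iECs, with an adjusted p of 0.158 over the 30 in each, so that none could pass. Libraries of the groups compared do not overlap in those cases, and for the levels of all genes tested this was so for 72.5%, 64.3% and 72.8% of genes in the same order of comparisons, near the 6, 5 and 8 of 10 pairs. For *RpS14a* this held between the iECs alone, where its share was 57.5, 57.3 and 57.1% in CycA dsRNA and 52.0, 51.6 and 55.2% in Myb dsRNA iECs. The remaining main genes of families, *RpL10Ab*, *RpL24*, *RpL37a*, *RpL7*, *RpS10b*, *RpS15Aa*, *RpS28b* and *RpS5a*, ran from -0.27 to -0.03 in CycA dsRNA iECs and from -0.29 to -0.17 in Myb dsRNA iECs on the log2 scale.

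Genes that work with the cytosolic ribosome were described by role. Its 2 proteins outside the symbol rule, *sta* of the small subunit and the scaffold *Rack1*, were at -0.21 (adjusted p = 0.022) and -0.01 (adjusted p = 0.91) in CycA dsRNA iECs and at -0.31 (adjusted p = 0.0026) and -0.06 (adjusted p = 0.32) in Myb dsRNA iECs, and neither was called. The 8 elongation factor genes had a median of -0.07 in CycA dsRNA and -0.08 in Myb dsRNA iECs. Of these, *eEF1delta*, a subunit of the exchange factor of eEF1A, was called lower in CycA dsRNA iECs, at 375, 366 and 380.4 CPM against 581, 612 and 592 CPM, with -0.67 ± 0.05 (SE, adjusted p = 8.6e-09), and 0 were called in Myb dsRNA iECs by edgeR or DESeq2, where 1 was higher and 3 lower at an unadjusted p under 0.05. Of all genes tested, 14.1% were called lower under CycA dsRNA and 6.78% under Myb dsRNA. The 1 of 8 elongation factor genes called lower is thus near the background. Genes that build ribosomes were lower in CycA dsRNA iECs, with counts to be read against the same shares. Of 8 snoRNP proteins, which modify rRNA, 8 were called lower and 0 higher, with a median of -0.96, and in Myb dsRNA iECs 0 were called lower and 0 higher, with a median of -0.13 and 6 lower at an unadjusted p under 0.05, also 0 and 0 with DESeq2. The fibrillarin gene *Fib* held 299, 334 and 309 CPM in control cells, 156, 156 and 142 CPM in CycA dsRNA iECs and 273, 283 and 291 CPM in Myb dsRNA iECs, which gives -1.05 ± 0.05 (SE, adjusted p = 3.7e-10) and -0.15 ± 0.05 (SE, adjusted p = 0.022) on the log2 scale. Of 9 RNA polymerase I genes 7 were called lower and 0 higher in CycA dsRNA iECs, with a median of -0.75, and 0 were called lower and 0 higher in Myb dsRNA iECs, with a median of -0.18 and 7 lower at an unadjusted p under 0.05, again 0 and 0 with DESeq2. Of the snoRNP genes the largest changes were those of *CG7637*, the fly Nop10, at -1.15 (adjusted p = 8.8e-09), and *hoip* at -1.12 (adjusted p = 1.3e-09). Of the polymerase genes the largest changes were those of *CG3756* at -0.88 (adjusted p = 6.4e-09), *RpI12* at -0.83 (adjusted p = 1.1e-06) and *Rpb5* at -0.79 (adjusted p = 4.6e-09), a subunit shared by all 3 polymerases. Between the iECs 8 of the 8 snoRNP and 5 of the 9 polymerase genes were called lower in CycA dsRNA (background 14.5%).

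Under CycA dsRNA more genes of the mitochondrial ribosome than of the cytosolic one were called. Of 73 genes 72 were tested. Called lower were 65 under CycA dsRNA (background 14.1%) and 7 under Myb dsRNA (background 6.78%), with 0 higher in either. The count under Myb dsRNA is thus near the background. DESeq2 called 0 of them higher too, and 0 were higher at an unadjusted p under 0.05. Their medians were -0.73 and -0.25, where the 78 cytosolic genes had -0.16 and -0.21. With the length trend removed the mitochondrial medians were -0.55 and -0.15, with 49 and 4 called lower. Between the iECs 32 of the 72 were called lower in CycA dsRNA (background 14.5%), at a median of -0.48.

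**Figure D5:**
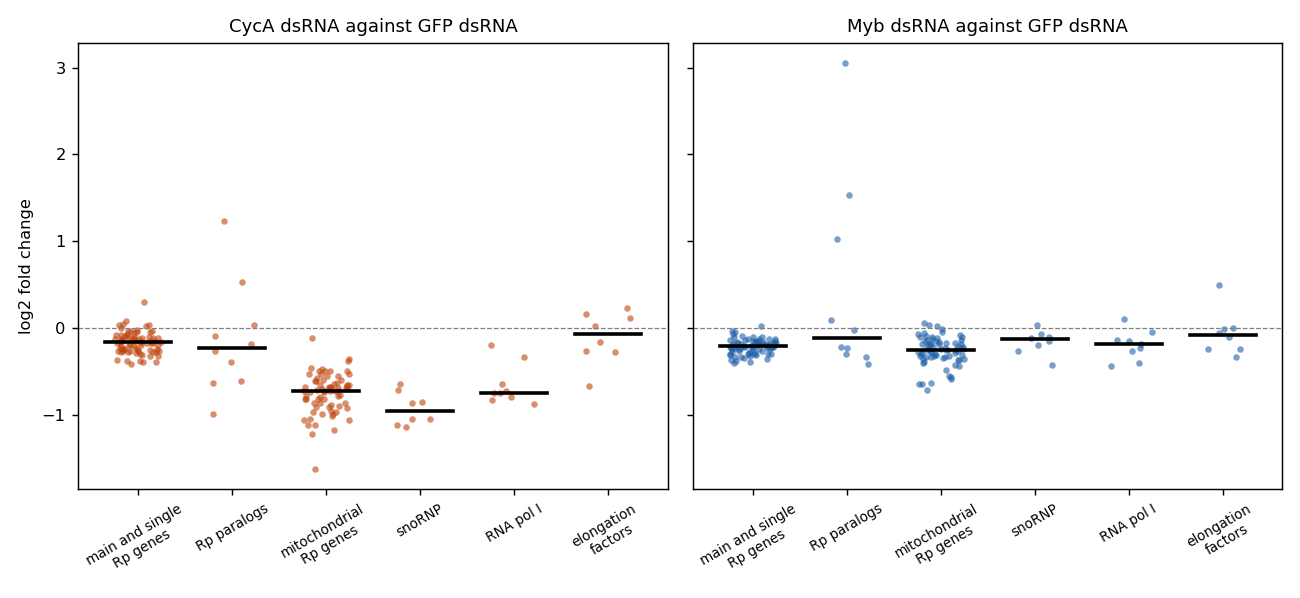
log2 fold change against GFP dsRNA of the 78 main and single-copy Rp genes, the 10 tested Rp paralogs, 72 mitochondrial Rp genes, 8 snoRNP genes, 9 RNA polymerase I genes and 8 elongation factor genes, in CycA dsRNA iECs (left) and Myb dsRNA iECs (right). Each point is 1 gene and the bar is the median of the list. The mitochondrial Rp, snoRNP and RNA polymerase I genes are all below 0 in CycA dsRNA iECs. The main and single-copy Rp genes lie between -0.41 and 0.30 there and between -0.40 and 0.02 in Myb dsRNA iECs.

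Among 13 regulators of ribosomal protein genes and their translation, 1 was called higher and 2 lower under CycA dsRNA and 0 under Myb dsRNA by edgeR or DESeq2, where 2 were higher and 4 lower at an unadjusted p under 0.05. Over all genes tested, 21.2% were called higher and 14.1% lower under CycA dsRNA, so these counts are near or under the background. *Dref*, a factor at many housekeeping promoters, held 141, 138 and 144 CPM in control cells, 98.5, 96.4 and 97.9 CPM in CycA dsRNA iECs and 180.1, 184 and 184 CPM in Myb dsRNA iECs, with -0.53 ± 0.04 (SE, adjusted p = 1.5e-08) and 0.37 ± 0.04 (SE, adjusted p = 1.4e-06). *Max*, the partner of Myc, was at -0.58 (adjusted p = 1.5e-08) in CycA dsRNA iECs, and the translation inhibitor *Pdcd4* at 0.60 (adjusted p = 1e-06). *Xrp1*, which is induced in flies that lack a copy of an Rp gene, was at 0.13 (adjusted p = 0.066) and -0.18 (adjusted p = 0.015), and *Trf2* and *M1BP*, which act at Rp gene promoters, were at 0.21 (adjusted p = 0.068) and -0.24 (adjusted p = 0.00013) in CycA dsRNA iECs.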

How the data were processed

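RNA-Seq libraries of S2-DGRC cells treated with GFP, CycA or Myb dsRNA, 3 biological replicates each, were grouped by their titles. Tissue samples of the same study were not analysed here. Per the methods and the submitters' processing notes, the authors checked reads with FastQC 0.11.5, mapped them with STAR 2.6.1a to the Dmel Release 6 genome and assigned them to exons with featureCounts. How reads with several matches and strand were handled is not given in the sources used here. The deposited counts table holds raw counts of 17493 genes with their exon length, and the authors did not normalize them. Their deposited comparison tables hold log2 fold changes, standard errors and p-values from DESeq2 1.14.1 and were not used. The symbols of 5 genes stored as dates were taken from their identifiers.

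One edgeR model (version 4.0.16 in R 4.3.3) was fitted to the 9 libraries with TMM factors, filterByExpr (minimum count 10) and the quasi-likelihood test, and p-values were adjusted over the 9231 genes kept. CPM are counts scaled with TMM factors, and per-kilobase levels divide by exon length. Limits from 0 counts cover counting error only. Positions are from the Ensembl BDGP6.54 annotation, in which 91 of the 92 members have the exon length of the table. No promoter or protein sequence was used here.

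The members and lists were chosen with earlier results of these data known. Genes named were those of families, the 5 highest and 5 lowest changes per comparison among members with a mean of at least 50 counts, the stalk, 5S particle and ubiquitin fusion genes, *RpS6*, *RpS3*, the highest and lowest per kilobase, and up to 3 called genes per list. *RpL36A*, *RpL39*, *RpL38*, *RpS21*, *RpL10*, the target genes, and the list genes named beyond these were chosen after their values were seen. Alternatives changed the tool (DESeq2 1.42.0), scaling (RLE, upper quartile, members left out), filter, groups, fold threshold, replicate block, length trend (lowess with a span of 0.3 on genes other than members) and each library left out, with 1 added after the data were seen. Replicates are biological by the labels.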

Additional observations from a re-analysis of the deposited data

How the results depend on the processing

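The members called higher in CycA dsRNA against GFP dsRNA, 2 in number, were 1 with DESeq2 and with scaling that left the members out. Leaving out 1 library gave 1 to 2, with 1 without control replicate 1 or 2, CycA dsRNA replicate 1 or 2, or Myb dsRNA replicate 1 or 2. Those called lower, 3, were 1 with the length trend removed, also with control replicate 2 left out, and 3 to 4 when 1 library was left out. With the adjusted p alone the counts were 3 higher and 43 lower in CycA dsRNA and 3 higher and 59 lower in Myb dsRNA iECs against control, and 6 higher and 7 lower between the iECs. Those 43 were 18 with the length trend removed, 11 with control replicate 2 left out as well, 67 without control replicate 1, and 29 to 67 over all single libraries left out. Their median of -0.169 was -0.031 with the trend removed, 0.016 with replicate 2 left out as well, and -0.249 to -0.090 without 1 library. For Myb dsRNA against GFP dsRNA the members called lower, 0, were 2 without control replicate 1 (*RpL11* and *RpS16*) and 1 without Myb dsRNA replicate 3 (*RpL22*), in a range of 0 to 2, and those called higher were 2 to 3 without 1 library. The 59 lower with the adjusted p alone were 34 with upper-quartile factors, 33 with the length trend removed, 15 with control replicate 2 left out as well, 33 without control replicate 2, 39 without Myb dsRNA replicate 2, and 33 to 75 over all single libraries left out. The median of -0.213 was -0.111 with the trend removed, -0.069 with replicate 2 left out as well, and -0.283 to -0.134 without 1 library. Between the iECs the 7 lower with the adjusted p alone were 12 with no filter on low counts and 12 without control replicate 2, in a range of 5 to 12, and those called lower by both thresholds were 4 to 5 without 1 library. The 6 higher with the adjusted p alone were 19 with no filter on low counts, 29 with only the 2 groups, 31 with the length trend removed, 34 with control replicate 2 left out as well, and 3 to 17 without 1 library (17 and 15 without control replicates 1 and 2, 11 without CycA dsRNA replicate 3, 4 without CycA dsRNA replicate 2, 3 without Myb dsRNA replicate 1 or 2). In CycA dsRNA iECs some main genes changed sign once the length trend was removed, *RpS14b* to 0.03, *RpS15Aa* to 0.13 and *RpS27A* to 0.13. With control replicate 2 left out as well, *RpS14b* was 0.04, *RpS15Aa* 0.16, *RpS27A* 0.17, *RpL10Ab* 0.20 and *RpL35A* 0.01. The cause was not tested. The share of counts assigned to members was 16.6% in control, 14.3% in CycA dsRNA and 15.1% in Myb dsRNA libraries on average, with or without the genes that fail the filter. Shares of pairs per kilobase left 19 of 30 comparisons without overlap, as before.

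Correlations of the deviations of same-numbered libraries ran from -0.142 to 0.168, and those of libraries with different numbers from -0.17 to 0.129. These ranges overlap and do not settle whether replicate numbers pair the libraries. Numbers are those of the titles. In the sample descriptions replicate 3 of CycA dsRNA and of Myb dsRNA carries a number other than that of control replicate 3. Whether these libraries share an experiment is not given. With the replicate block, members called were 2 higher and 3 lower in CycA dsRNA, 3 and 0 in Myb dsRNA iECs and 0 and 5 between the iECs, with medians of -0.166, -0.21 and 0.033. The planned scan of promoter and start site motifs was not run, since no sequence was used here. Counts of 4 to 21 per library limit *RpL37b*, and the spread of the control libraries limits the main genes.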

Other observations

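Of the 6 main and single genes that were above Myb dsRNA iECs under CycA dsRNA with the adjusted p alone, *RpL15*, *RpL10* and *RpL5* lie near the centromeric end of an assembled arm and *RpS3A* on chromosome 4, a place noticed after the values were seen and not tested. With limits set after that at 22 Mb of 2L, 5 Mb of 2R, 23 Mb of 3L, 4 Mb of 3R and 22 Mb of X, 5 of the 78 genes are centromere-proximal (*RpL10*, *RpL15*, *RpL21*, *RpL38* and *RpL5*). All 5 had a log2 fold change above 0 in CycA dsRNA against Myb dsRNA, with a median of 0.21. Since *RpL15*, *RpL10* and *RpL5* had been taken for being higher in this same comparison, that count and median were partly fixed in advance. Of the 72 genes on other stretches 44 were above 0, with a median of 0.04. Over all genes tested the medians were 0.12 for 135 proximal genes, 0.08 for 92 genes of chromosome 4 and -0.02 for 8919 genes on other stretches. Against GFP dsRNA the 5 proximal Rp genes had a median of -0.05 under CycA dsRNA, with 1 above 0, and of -0.13 under Myb dsRNA, with 0 above 0, and the 72 others -0.18 and -0.21. Over all genes tested the same places had medians of 0.15, 0.26 and -0.01 in CycA dsRNA iECs, and 0.02, 0.07 and 0.01 in Myb dsRNA iECs.

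Neither position on X nor snoRNA genes inside the gene set the main genes apart by much. In CycA dsRNA iECs the 13 genes on X had a median log2 fold change of -0.19 and the 65 on autosomes -0.16, and in Myb dsRNA iECs -0.19 and -0.21. The 28 genes with snoRNA genes inside were at -0.16 and -0.22, the 50 others at -0.17 and -0.21. The 44 genes under 1000 bases of exon were at -0.15 and -0.20, and the 34 longer ones at -0.20 and -0.22, in CycA dsRNA and Myb dsRNA iECs. Outside the Rp group, the 1494 genes under 1000 bases were at -0.18 and -0.12, where all genes tested were at 0.00 and 0.01. These are descriptions with no test.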
